A study of Rattus norvegicus with 9 samples.

Results

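A set of 10 genes of the vessel wall and of vessel growth was followed in an ageing muscle of the rat larynx, as a measure of the vessels within it. The genes were *Acta2*, *Tagln*, *Myh11* and *Cnn1* of smooth muscle, *Pecam1*, *Vwf* and *Nos3* of endothelium, the growth factor receptors *Kdr* and *Flt1*, and their ligand *Vegfa*. Every probe set (a group of short probes for a transcript) whose annotation names 1 of these genes alone was taken. That gave 24 probe sets for all 10 genes, out of 8740 probe sets and 4736 genes on the array. A further 4 probe sets are annotated to *Acta2* together with the cardiac actin gene *Actc1* and were not counted as members.

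Posterior cricoarytenoid muscle, which draws the vocal folds apart to open the airway, was taken from rats of 6, 18 and 30 months. Each age had 3 Affymetrix Rat Genome U34 arrays, and each array held RNA combined from 4 animals, so replicates are pools and the spread between them is smaller than that between single rats. The labels name no treatment and set the groups apart by age alone; the sources used here give neither strain nor sex. Values are signals of the Affymetrix Microarray Suite 5.0 software, on a linear scale, with the authors' scaling of each array to one common mean. Skeletal muscle markers read high on every array, for example *Ckm*, muscle creatine kinase, at a mean of 34163 at 6 months. Median signals ran from 120 to 125 over the 6-month arrays, from 104 to 116 at 18 months and from 105 to 112 at 30 months. Every 6-month array thus had a higher median than every later one. Across probe sets the r of log2 signals was 0.972 to 0.984 within an age and 0.967 to 0.988 between ages. Signals of bulk muscle cannot tell fewer vessel cells from less RNA per vessel cell.

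Blood vessels in muscle consist of an endothelial tube, wrapped in arterioles by contractile smooth muscle. Smooth muscle cells hold their own actin (*Acta2*), a myosin heavy chain (*Myh11*) and the actin-binding proteins transgelin (*Tagln*) and calponin (*Cnn1*). Endothelial cells carry the adhesion molecule PECAM-1, release von Willebrand factor for clotting, and make nitric oxide through *Nos3*, which relaxes the vessel. Muscle fibres and other cells secrete VEGF-A, which acts on endothelium mainly through the receptor of *Kdr*, while the receptor of *Flt1* binds it tightly and also exists as a soluble trap.

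Promoter windows are printed for the genes that the values below turn on: *Acta2*, the smooth muscle actin, and *Vegfa* and *Kdr*, a ligand and its receptor. RefSeq windows of the rat assembly GRCr8, from 250 bases before to 50 bases after a start site, were at hand for 6 of the 10 genes (7 windows, of which *Vegfa* has 2). In *Acta2*, capitals mark stretches 1 letter off the CArG box, the element bound by serum response factor in smooth muscle genes. In *Kdr* and *Vegfa* they mark GGGCGG, the GC box bound by Sp1, on either strand.
Acta2 (GRCr8, chr1:241172454-241172753, minus strand): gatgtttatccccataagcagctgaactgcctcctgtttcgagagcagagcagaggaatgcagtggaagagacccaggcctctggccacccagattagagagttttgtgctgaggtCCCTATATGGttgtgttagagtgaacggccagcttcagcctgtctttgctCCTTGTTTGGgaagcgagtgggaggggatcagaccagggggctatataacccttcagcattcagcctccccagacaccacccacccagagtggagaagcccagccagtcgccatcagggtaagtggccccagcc
Kdr (GRCr8, chr14:32571813-32572112, plus strand): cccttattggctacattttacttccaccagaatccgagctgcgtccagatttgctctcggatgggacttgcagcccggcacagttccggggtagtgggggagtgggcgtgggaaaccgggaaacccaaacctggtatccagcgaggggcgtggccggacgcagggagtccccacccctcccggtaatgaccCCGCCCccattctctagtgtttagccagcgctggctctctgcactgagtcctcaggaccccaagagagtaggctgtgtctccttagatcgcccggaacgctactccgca
Vegfa (GRCr8, chr9:22452604-22452903, plus strand): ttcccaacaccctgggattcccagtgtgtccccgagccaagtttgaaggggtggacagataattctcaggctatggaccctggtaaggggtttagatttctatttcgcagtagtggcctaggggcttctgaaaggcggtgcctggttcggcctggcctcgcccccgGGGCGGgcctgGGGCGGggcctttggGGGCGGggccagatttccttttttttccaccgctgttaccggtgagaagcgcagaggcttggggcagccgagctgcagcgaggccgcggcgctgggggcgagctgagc

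An exact CArG box was in 0 of the 7 windows, and in 1.64% of all 33469 windows. With 1 letter allowed to differ, a rule added after the exact search, 2 of the 7 windows (*Acta2* and *Kdr*) and 21.3% of all windows held one. The *Acta2* window held 2 such stretches, CCCTATATGG starting 134 bases and CCTTGTTTGG starting 84 bases before the start site. The *Acta2* gene is known for CArG elements that depart from the exact form. GC boxes stood in 4 of the 7 windows (*Flt1*, *Kdr*, *Nos3* and 1 of *Vegfa*) and in 33.1% of all windows; that *Vegfa* window held 3 and the *Kdr* window 1. These matches describe letters and say nothing of binding in this muscle.

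No vessel gene passed the test at any age. Signals were compared as log2(signal + 32) with a linear model over all 9 arrays (limma), on the 5244 probe sets in the upper 60% by mean. These included 18 of the 24 member probe sets and 9 of the 10 genes; *Vwf* lay below the filter. At 18 against 6 months 0 of the 18 passed an adjusted p of 0.05, where 0.0763% of all probe sets did, and 0 had an unadjusted p under 0.05, where 8.62% did. At 30 against 6 months the count was 0 of 18 (0.324% of all), and again 0 at an unadjusted p under 0.05 (12.9% of all). At 30 against 18 months it was 0 of 18 (0.0191% of all), with 0 at an unadjusted p under 0.05 (3.2% of all). The values of both ages overlapped in all 18 in each comparison, while 13.7%, 22.2% and 7.36% of all probe sets had no overlap in the same order of comparisons. The F-test for any difference among ages passed in 0.267% of all probe sets and in 0 of the 18, none of which had an unadjusted F-test p under 0.05. The smallest adjusted p of a member was 0.699 at 18 against 6 months and 0.405 at 30 against 6 months, by limma with Benjamini-Hochberg adjustment. These p-values measure the spread between pools.

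**Figure D1:**
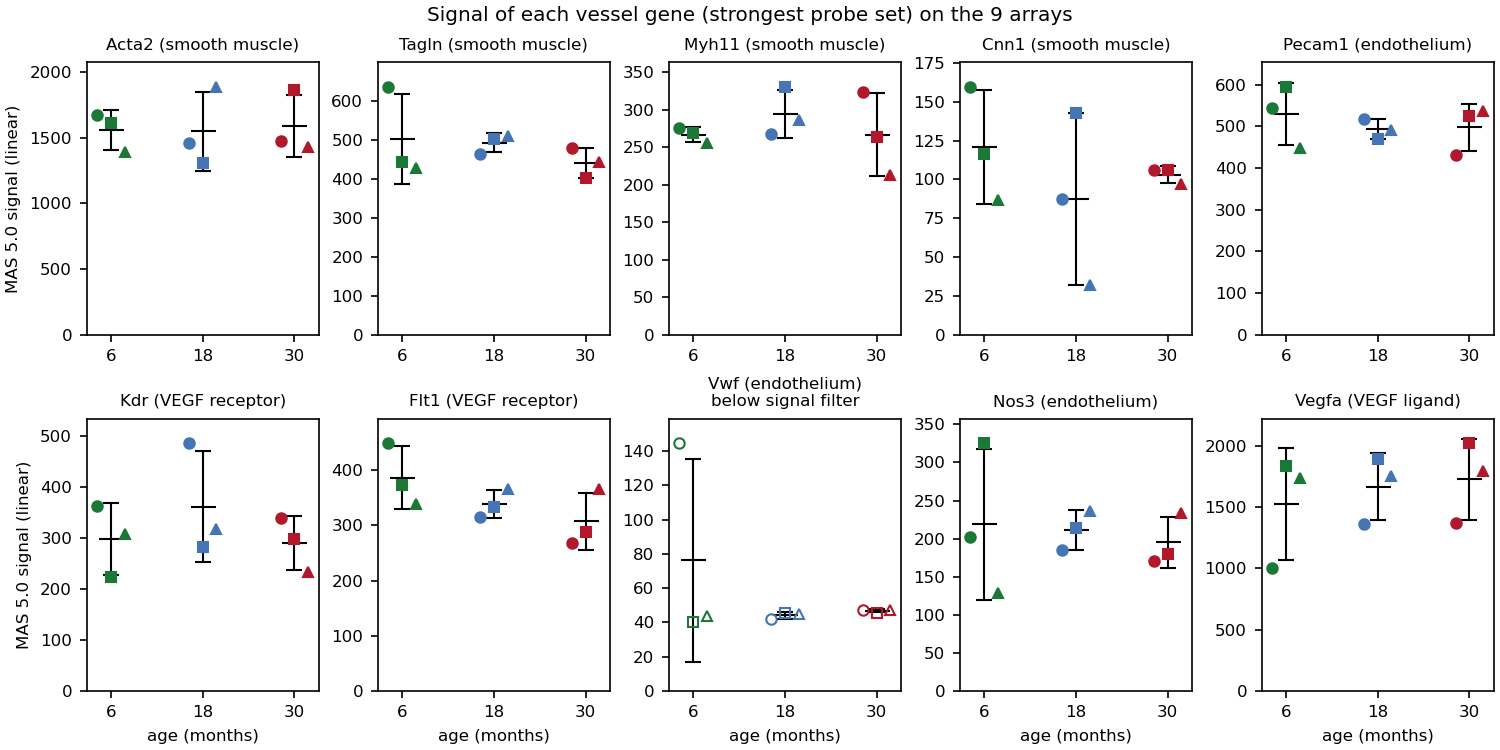
Signal (linear scale) of the strongest probe set of each vessel gene at 6, 18 and 30 months; circles, squares and triangles are replicates 1, 2 and 3, and bars give the mean and SD of 3 arrays. The ages overlap in each panel, and the open symbols of Vwf mark a probe set below the signal filter, with 1 array at 144.5.

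No smooth muscle gene passed the test, and *Myh11*, *Tagln* and *Acta2* were limited more closely than *Cnn1*. The strongest *Acta2* probe set read 1676, 1613 and 1389.5 at 6 months, 1458, 1307 and 1886 at 18 months, with 1478, 1864 and 1428 in the 30-month arrays. Its means were 1559.7 ± 151, 1550.2 ± 301 and 1590.3 ± 239 (SD, n = 3 arrays per age). The arrays of 18 months span the whole range of the other ages, from the lowest to the highest value of all. The log2 change at 30 against 6 months was 0.02 (95% interval -0.35 to 0.39, adjusted p = 0.973 by limma), so that changes beyond 0.786- or 1.31-fold lay outside the interval. A second *Acta2* probe set, rc_AA900769_s_at, had a log2 change of -0.05 (-0.50 to 0.40) in the same comparison. The third, X06801cds_i_at, scattered from 22.5 to 361 within the 18-month arrays alone, and its interval of -1.28 to 1.85 sets no useful limit.

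The probes of the strongest *Acta2* set belong to a class shared within a gene family, by the suffix of its name, and skeletal actin is abundant in this tissue. Of the 4 probe sets annotated to both *Acta2* and *Actc1*, 3 read 14765 or more on every array and 1 read 93.8 or less. At 30 against 6 months the 3 strong sets had log2 changes of 0.11, 0.21 and 0.41. The set at 0.41 was higher without overlap but did not pass (unadjusted p = 0.0226, adjusted p = 0.331 by limma). The weak set, below the filter, was lower without overlap, at a ratio of means of 0.468. Of all tested probe sets 22.2% had no overlap. *Acta1*, the skeletal actin gene, had a mean signal of 29812 ± 2961 at 6 months that was 35043 ± 2163 at 30 (SD, n = 3), a log2 change of 0.24 that did not pass (adjusted p = 0.452 by limma). How much skeletal actin the *Acta2* probes read was not tested.

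*Tagln* encodes transgelin, an early marker of smooth muscle. Its strongest probe set read 635, 442 and 427 at 6 months, 464, 503 and 508 at 18 months, with 479, 401 and 442 in the 30-month arrays. One array of 6 months stood above the other 8, and the remaining values all lay between 401 and 508. The mean was 501 ± 116 at 6 months against 441 ± 38.8 at 30 (SD, n = 3; log2 change -0.16, SE 0.15, 95% interval -0.50 to 0.19, adjusted p = 0.683 by limma). The other *Tagln* probe set gave -0.18 (-0.54 to 0.19), and over the 9 arrays the 2 sets correlated at r = 0.71, given as a description.

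*Myh11*, the heavy chain of smooth muscle myosin, read 276, 269 and 255 at 6 months in its strongest probe set. At 18 months it read 267, 330.2 and 286, with 324, 263 and 213 in the 30-month arrays. The 30-month arrays held values both above and below all 3 of 6 months. The log2 change was 0.12 at 18 months (95% interval -0.21 to 0.46) and -0.02 at 30 months (-0.35 to 0.32), each against 6 months. The other 2 *Myh11* probe sets were under the signal filter. One of them, X16261_i_at, is the only member that met a fold rule close to that of the authors, a ratio of mean signals over 1.7 without overlap. It read 7.20, 7.60 and 7.40 at 6 months against 35.4, 11.3 and 17.3 at 18 months, a ratio of 2.88 at a very low signal, and was named after its values were seen. This rule was met at 18 against 6 months by 1 of the 24 member probe sets and by 3.59% of all 8740. It was met by 0 of the 24 at 30 against 6 months (6.2% of all) and by 0 at 30 against 18 months (3.02% of all). Without a signal filter the adjusted p of that probe set was 0.608 by limma, and its log2(signal + 32) change of 0.41 understates the ratio at such signals. The strongest *Myh11* set had the log2 change of 0.12 given above in that comparison.

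*Cnn1*, calponin, was the most variable of the smooth muscle genes and the least well limited. It read 159.6, 116 and 86.8 at 6 months, 87.6, 143 and 32 at 18 months, with 106, 106 and 96.8 in the 30-month arrays. A single low array at 18 months lay below all others. The log2 changes were -0.44 at 18 months (95% interval -1.15 to 0.26, adjusted p = 0.699 by limma) and -0.15 at 30 months (-0.86 to 0.55), so a 0.551-fold decrease and a 1.47-fold increase at 30 months both lay at the ends of its interval.

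**Figure D2:**
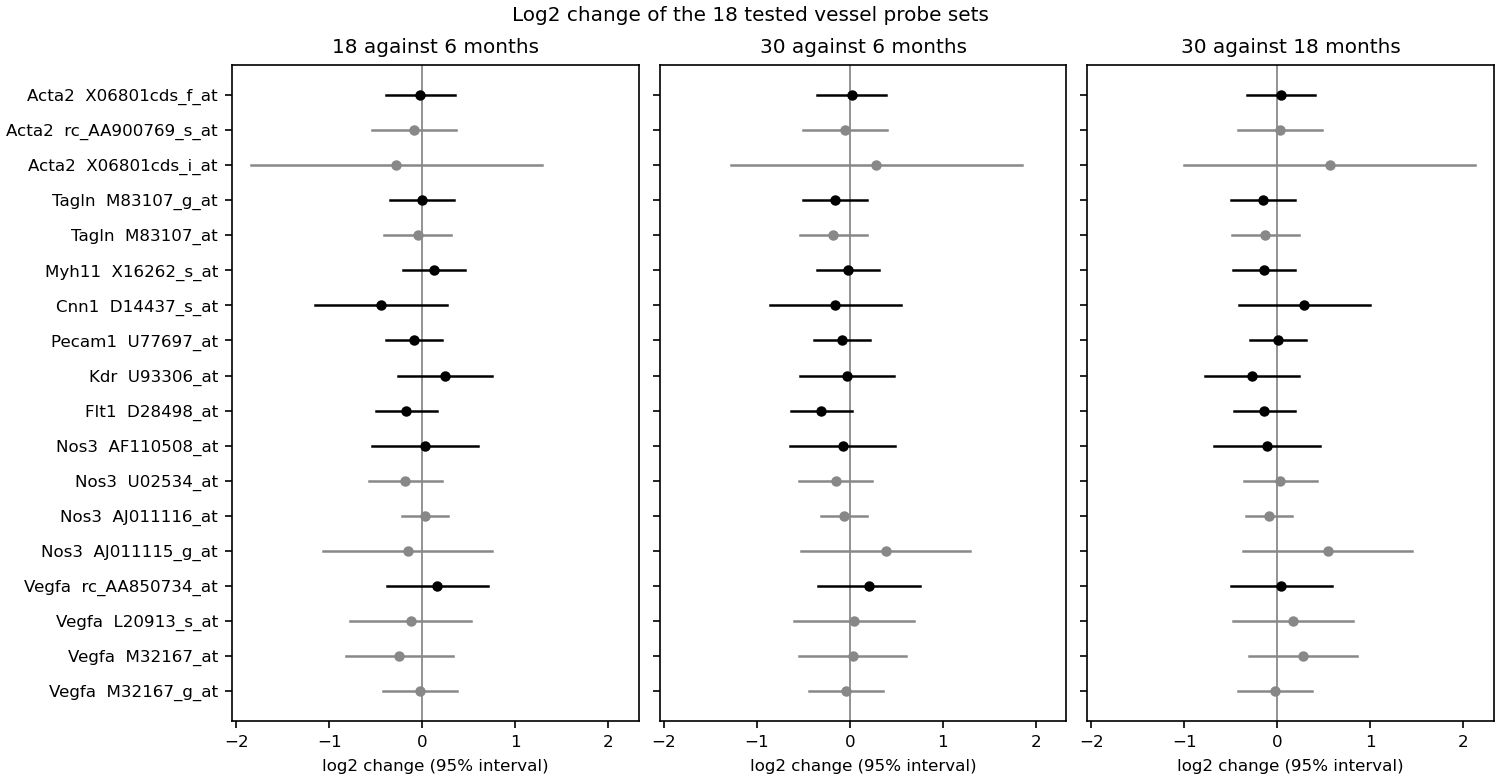
Log2 change of the 18 tested vessel probe sets in each comparison of ages, with 95% intervals from limma; black marks the strongest probe set of a gene and grey its others. Every interval includes 0, and the widest belong to the Acta2 set X06801cds_i_at, to Nos3 AJ011115_g_at and to Cnn1.

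Among the endothelial genes, *Pecam1* had the closest limits of the strongest probe sets. PECAM-1 sits at the contacts between endothelial cells and is also carried by platelets and some leukocytes. The gene read 544, 594 and 448 at 6 months, 517.5, 470.0 and 491 at 18 months, with 432, 523 and 537 in the 30-month arrays. The 18-month values lay wholly inside the range of 6 months. Its means were 528.5 ± 74.3, 493 ± 23.8 and 497 ± 57.1 (SD, n = 3), and the log2 change at 30 against 6 months was -0.08 (SE 0.14, adjusted p = 0.830 by limma). The 95% interval ran from 0.767- to 1.17-fold at 30 months and from 0.763- to 1.16-fold at 18 months.

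*Nos3*, the endothelial nitric oxide synthase, was covered by 6 probe sets, of which 4 were tested. The strongest read 202, 325 and 128.5 at 6 months, 185, 213 and 237 at 18 months, with 171, 180.4 and 234 in the 30-month arrays. All later values lay within the wide spread of 6 months. Its log2 change was 0.03 at 18 months (95% interval -0.54 to 0.60) and -0.08 at 30 months (-0.64 to 0.49). The steadiest *Nos3* set, AJ011116_at, read between 94.2 and 122.5 on all 9 arrays, with a log2 change at 30 months of -0.06 (-0.31 to 0.18). The 4 sets did not follow each other over the arrays: their 6 pairwise correlations ran from -0.30 to 0.40, against 0.56 to 0.92 for the 6 pairs of *Vegfa* sets. Values of *Nos3* near 100 are therefore given as measured, without reading an order of arrays from them.

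*Vwf*, the gene of von Willebrand factor, which binds platelets to a damaged wall, had 2 probe sets, both below the signal filter. The stronger read 144.5, 40.3 and 43.5 at 6 months, 42.0, 45.7 and 44.6 at 18 months, with 47.0, 45.7 and 47.3 in the 30-month arrays. Apart from the single array at 144.5, the 8 values lay within 40.3 to 47.3. In a fit without the filter the log2 change at 30 against 6 months was -0.33 (SE 0.30, adjusted p = 0.676 by limma). The weaker set scattered between 10.3 and 78.8.

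Of the VEGF receptors, *Flt1* came nearest to a difference with age and did not reach it. It read 449, 373 and 339 at 6 months, 316, 334 and 366 at 18 months, with 269, 287 and 366 in the 30-month arrays. The highest value of 30 months lay above the lowest of 6 months, so the ages overlapped. Means were 387 ± 56.3, 339 ± 25.1 and 307 ± 51.3 (SD, n = 3). The log2 change was -0.17 at 18 months (SE 0.15) and -0.31 at 30 months (SE 0.15, 95% interval -0.63 to 0.02, unadjusted p = 0.0633, adjusted p = 0.405 by limma). Over 17 alternative fits the value at 30 months ran from -0.43 to -0.20, with an adjusted p between 0.370 and 0.702.

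*Kdr*, the main signalling receptor for VEGF-A on endothelium, read 363, 224 and 309 at 6 months, 486, 283 and 317 at 18 months, with 339, 298 and 234 in the 30-month arrays. The highest array of each age was replicate 1. Its log2 change was 0.24 at 18 months (95% interval -0.26 to 0.75) and -0.03 at 30 months (-0.53 to 0.48), and the change from 18 to 30 months was -0.27 (-0.77 to 0.24).

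*Vegfa*, the ligand, was measured by 4 tested probe sets, and none passed the test for age. The strongest read 999, 1834 and 1739.6 at 6 months, 1358, 1892 and 1749 at 18 months, with 1367, 2019 and 1794 in the 30-month arrays. Within each age replicate 1 was lowest, and the gap between it and the other 2 arrays was wider than any gap between ages in those 2. Means were 1524 ± 457, 1667 ± 276 and 1727 ± 331 (SD, n = 3), with a log2 change at 30 against 6 months of 0.21 (95% interval -0.34 to 0.75, adjusted p = 0.726 by limma). The other 3 sets gave 0.04, 0.03 and -0.04 in that comparison.

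Replicate 1 was mostly lowest in the other *Vegfa* sets too, while the order of replicates 2 and 3 varied. L20913_s_at read 687, 1075 and 849 at 6 months, 497, 956.5 and 1002 at 18 months, with 636, 1043 and 1036.5 in the 30-month arrays. Taking 4 probe sets and 3 ages, replicate 1 was the lowest array in 11 of 12 cases; the exception was M32167_at at 6 months, where replicate 3 read 479 and replicate 1 read 534. Over the ages the strongest set averaged 1241 in replicate 1, 1915 in replicate 2 and 1761 in replicate 3. *Kdr* lay the other way, with 396 in replicate 1 and 268 and 287 in the others. These sets share target and arrays, so they are not independent, and the labels do not say what a replicate number stands for.

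Replicate number was then tested as a term beside age, a test chosen after the *Vegfa* values were seen. Neither gene passed over all 5244 probe sets by limma: the adjusted p was 0.267 and 0.319 for the *Vegfa* sets L20913_s_at and rc_AA850734_at, with unadjusted values of 0.00188 and 0.00284, and 0.534 for *Kdr*. In all, 1 probe set passed (0.0191%), and 424 had an unadjusted p under 0.05. Over the 9 arrays *Kdr* and *Vegfa* had a Pearson r of -0.63 and a Spearman rho of -0.82, and r was -0.69 without the 2 arrays farthest from the median of *Kdr* and -0.76 with age means removed. This is a description of 9 arrays that share their scaling, without a test.

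**Figure D3:**
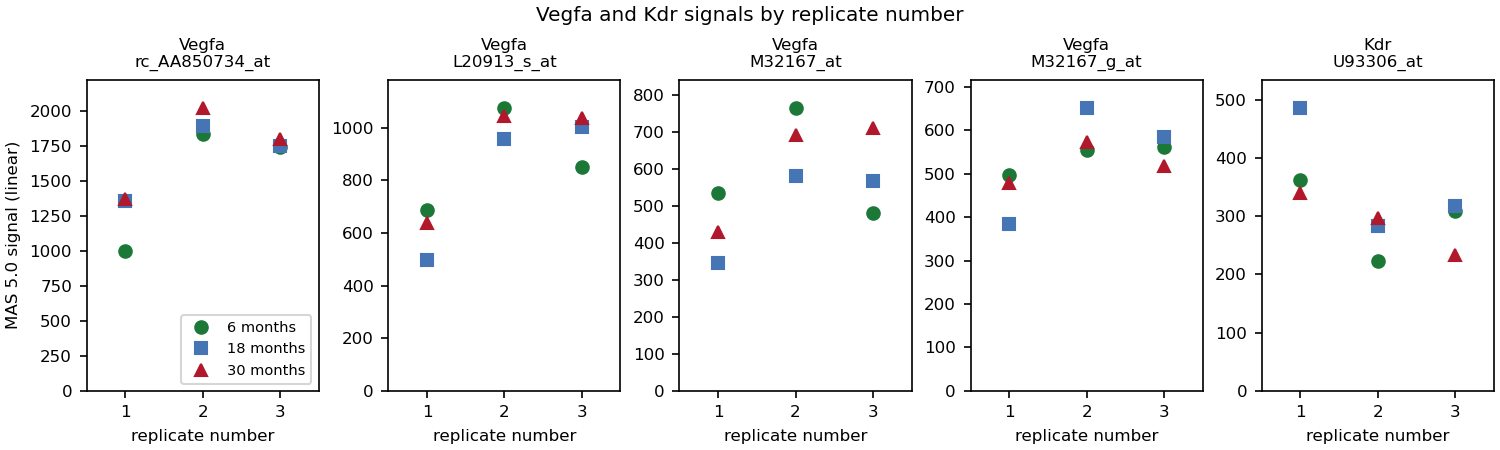
Signal (linear scale) of the 4 Vegfa probe sets and of Kdr by replicate number, with ages as circles (6 months), squares (18 months) and triangles (30 months). Replicate 1 is the lowest array of its age in 11 of 12 Vegfa cases and the highest at all 3 ages in Kdr.

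Correlations between the vessel genes over the arrays lay on both sides of 0. Among the 9 genes with a tested probe set, the 36 pairs had a median r of 0.03, from -0.77 (*Tagln* with *Vegfa*) to 0.73 (*Pecam1* with *Nos3*), and 19 were above 0. Between smooth muscle genes r ran from -0.40 (*Acta2* with *Cnn1*) to 0.37 (*Tagln* with *Myh11*), and these moved to 0.34 and 0.71 without the 2 arrays farthest from the median of the former gene (Spearman rho -0.08 and 0.70 over all 9). By the same check, *Tagln* with *Vegfa* had an r of -0.06 and *Pecam1* with *Nos3* one of 0.55, so several of these values, the lowest r among them, rest on few arrays. All are descriptions over 9 arrays, without a test.

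The genes most like each member were sought among 3162 other genes by Pearson r over the 9 arrays, with the 2 highest named and no meaning read from them. *Vegfa* was closest to *Ndufs1* (0.98), a subunit of respiratory complex I, and *Sod3* (0.97), the extracellular superoxide dismutase. *Kdr* lay closest to *Cspg4* (0.93), a proteoglycan of pericytes, and *Slco2a1* (0.93), a prostaglandin transporter. For *Flt1* they were *Gucy1b2* (0.93) and *Nf1* (0.93), for *Pecam1* *Maf* (0.91) and *Zfp426* (0.85), and for *Nos3* *Ralgapa1* (0.86) and *Pfkfb1* (0.84). In smooth muscle, *Acta2* was followed by *Furin* (0.97) and *Fxyd1* (0.94), *Tagln* by *Tgfb3* (0.94) and *Slk* (0.93), *Myh11* by *Grina* (0.89) and *Rpl11* (0.89), and *Cnn1* by *Hes1* (0.93) and *Cdh22* (0.93). Such high values are the top of a long search over few arrays.

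Other genes of vessels were taken as lists, each gene standing by its strongest probe set, and 0 genes of these lists passed the test in any comparison. Beside them, the 9 member genes had a median log2 change of -0.01 at 18 months and -0.08 at 30 months against 6 months. The median over all tested probe sets was -0.04 and -0.05. After quantile normalization the member medians were 0.03 and 0.02, and the sign turned in both comparisons. At 30 against 18 months the member median was -0.11, with 4 genes higher and 5 lower, and it stayed at -0.08 after quantile normalization. The medians over all tested probe sets were -0.02 and -0.01 there. Of the 9 genes, 4 lay higher and 5 lower at 18 months, and 2 higher and 7 lower at 30 months.

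The list of smooth muscle contraction, with myosin light chains, tropomyosins and intermediate filaments, had 14 tested of 16 genes on the array. At 30 against 6 months 4 lay higher and 10 lower with a median of -0.07 (-0.06 after quantile normalization). Of the 14, 2 had an unadjusted p under 0.05, *Cald1* (-0.32) and *Itga8* (-0.74), where 12.9% of all probe sets did. The strongest genes of this list, *Tpm1* (0.28), a tropomyosin, and *Des* (0.00), desmin, are also made by skeletal fibres. The endothelial list had 20 tested of 24 genes, 7 higher and 13 lower, with a median of -0.11, which was -0.04 after quantile normalization. In it *Aqp1*, a water channel not made by endothelium alone, had mean signals of 2420.3 ± 329, 3178 ± 394 and 2994 ± 405 at the 3 ages in turn (SD, n = 3). Its log2 change was 0.39 at 18 months (unadjusted p = 0.0302, adjusted p = 0.546 by limma) and 0.30 at 30 months (adjusted p = 0.429 by limma). *Cav1*, the coat protein of caveolae, had a log2 change of -0.12 at 30 months. At 30 against 6 months 2 endothelial genes had an unadjusted p under 0.05, where 12.9% of all probe sets did. Both were lower and are named after their values were seen: *Vcam1* (-0.44, adjusted p = 0.378 by limma) and *Tfpi* (-0.39, adjusted p = 0.3705 by limma).

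For growth signals around VEGF, the angiogenic list had 19 tested of 28 genes, 7 higher and 12 lower at 30 months, with a median of -0.11, which was -0.04 after quantile normalization. *Vegfb*, which binds the receptor of *Flt1*, had a log2 change of 0.02, and *Egln3*, an oxygen-sensing prolyl hydroxylase, one of 0.11. The list of vessel tone had 22 tested of 38 genes. In it 11 lay higher and 11 lower at 18 months, and 6 higher and 16 lower at 30 months with a median of -0.18, or -0.06 after quantile normalization. At 30 against 18 months 4 lay higher and 18 lower, with a median of -0.15, or -0.13 after quantile normalization. The medians over all tested probe sets were -0.02 and -0.01 there. The strongest genes of this list were *Hmox2* (-0.03), a heme oxygenase, and *Ddah1* (0.24), which degrades an inhibitor of nitric oxide synthases.

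The pericyte list held 4 tested of 5 genes, and 3 of the 4 lay lower at 30 months with a median of -0.17 (-0.13 after quantile normalization). *Abcc9*, the sulfonylurea receptor subunit of potassium channels in pericytes, smooth muscle and muscle fibres, read 792, 558 and 608 at 6 months, 537.5, 470 and 469 at 18 months, with 397, 476 and 392 in the 30-month arrays. The 6- and 30-month values did not overlap, and the log2 change of -0.58 (SE 0.15) had an unadjusted p of 0.00298 but an adjusted p of 0.234 by limma. *Anpep*, aminopeptidase N, had a log2 change of -0.17. A like case in the vessel tone list, named after its values were seen, was *Nos2*, the inducible nitric oxide synthase: 308, 275 and 330.0 at 6 months against 204, 210.3 and 200.3 at 30 months. It had a log2 change of -0.50 (SE 0.12, unadjusted p = 0.00214, adjusted p = 0.197 by limma). At 30 against 6 months 12.9% of all probe sets had an unadjusted p under 0.05, and 22.2% had no overlap. Other tested genes of the vessel lists had no overlap either, most of them lower, and are likewise named after their values were seen. Lower were *Itga8* (-0.74, adjusted p = 0.290 by limma) and *Cald1* of smooth muscle contraction, and *Vcam1* and *Edn1* of the endothelial list. *Pdgfra* of the angiogenic list and *Agtr1a* of the vessel tone list were lower too. The only higher one was *Tgfb1* of the angiogenic list (0.77, adjusted p = 0.334 by limma).

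**Figure D4:**
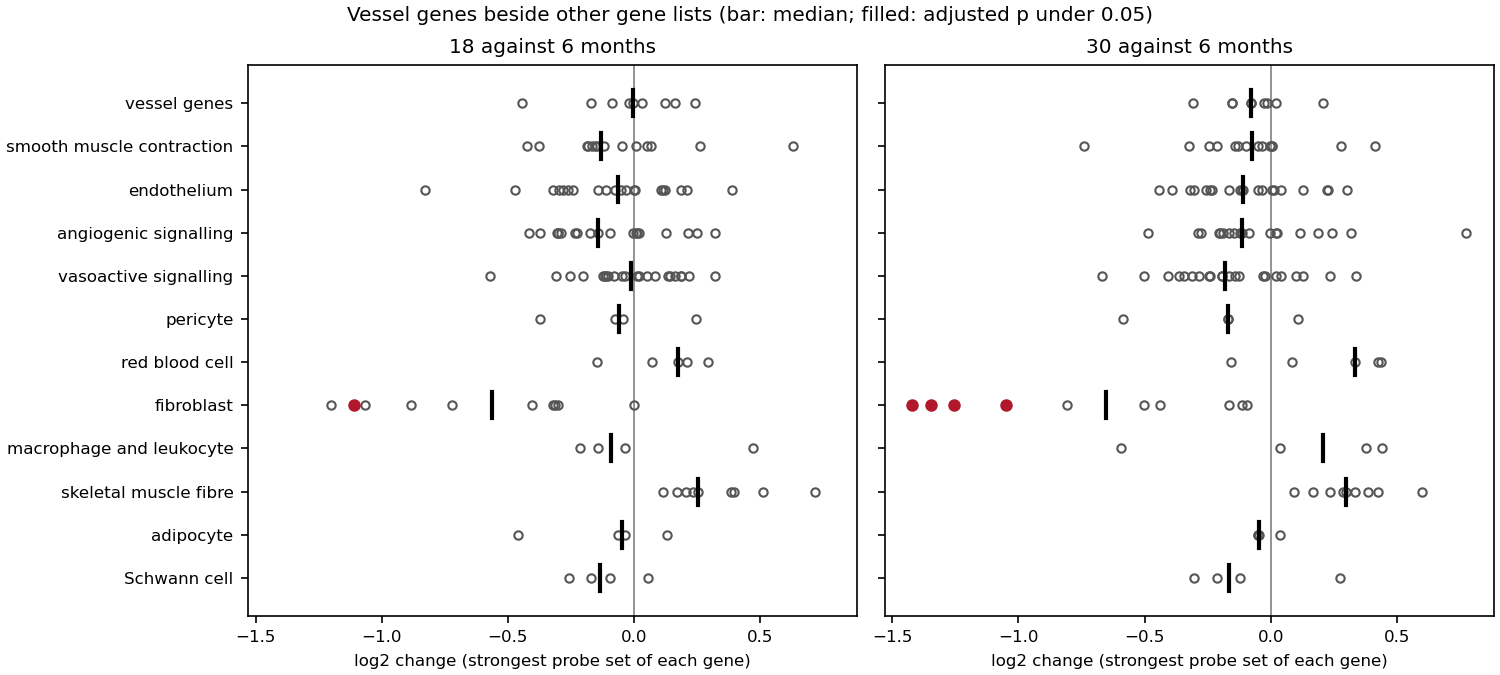
Log2 change of each gene (strongest probe set) at 18 and 30 against 6 months, by list, with the list's median as a bar and genes past an adjusted p of 0.05 filled. Filled points appear in the fibroblast list alone, with 1 gene at 18 months and 4 at 30 months.

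Markers of other cells in the muscle moved beside the vessel genes as follows. Fibroblast genes were lower at 30 months, in a list chosen with earlier results of these data known. All 10 lay below 6 months, with a median of -0.65. Of them 4 fell past the threshold (*Col1a1*, *Col1a2*, *Col3a1* and *Col5a2*), where 0.324% of all probe sets passed. The summed signal of the list was 17537 to 22203 at 6 months and 14097 to 14373 at 30 months. In each of these 4 collagens, picked by their call, every 30-month array lay below every 6-month array. Of all probe sets 22.2% had no overlap in that comparison. The ratio of mean signals of the 4 collagens was 0.363 to 0.444. Their adjusted calls were lost with fewer arrays: without replicate 2 of 6 months, or replicate 2 or 3 of 30 months, 0 probe sets of the whole table passed by limma, with 416 to 588 under an unadjusted p of 0.05. Whether *Pecam1* or *Acta2* differed from the collagens in their change was not tested.

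Red cell genes were taken as a possible measure of blood left in the vessels, which was not itself measured. Of 5 genes 4 lay higher at 30 months, with a median of 0.34 (0.25 after quantile normalization) and 0 past the threshold. *Hbb*, the β-globin, read 14261, 11253 and 12919.6 at 6 months, 13928, 15441 and 13860.3 at 18 months, with 17845, 17012 and 13746 in the 30-month arrays (log2 change at 30 months 0.34, SE 0.14, adjusted p = 0.361 by limma). *Hbb-b1* had 0.44, from a probe set of the same family class. Of the other genes *Hba-a3* had 0.43, *Alas2* 0.09 and *Slc4a1* -0.16. Summed red cell signal, mostly that of *Hbb* and *Hbb-b1*, was 16610 to 20578 at 6 months and 20468 to 26954 at 30 months. Its part in the values of the vessel genes was not tested.

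Skeletal fibre markers lay higher in 9 of 9 genes at 30 months, with a median of 0.30 that was 0.12 after quantile normalization, and 0 passed. Since arrays are scaled to one mean, a rise of these strong signals and a lower share of others cannot be told apart. Leukocyte genes had 3 of 4 higher (*Lyz2* 0.38, *Cd14* -0.59), fat cell genes 3 of 4 lower (*Lpl* 0.04, *Lep* -0.05) and Schwann cell genes 3 of 4 lower (*Pmp22* -0.30, *Mag* -0.12), with 0 past the threshold in these lists. Cartilage genes stayed below the filter, with *Comp* at a mean of 78.2 and *Col9a1* at 20.3 at 6 months, and a summed signal of 78.7 to 151.7 over all arrays.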

How the data were processed

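Per the series' labels, the authors hybridized biotinylated cRNA and computed signal intensity with Microarray Suite 5.0 (MAS5 in the submitters' processing notes); the deposited intensity values are linear, and the build is not given in the sources used here. Of 8799 probe sets 59 controls were left out. The authors' scaling was kept (2% trimmed mean about 501 on each array). Of the rest, 7006 carry 1 gene symbol, 308 several and 1426 none in the platform annotation.

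Log2(signal + 32) was fitted with 1 mean per age in limma 3.58.1 (R 4.3.3), with two-sided p-values adjusted over 5244 probe sets. Intervals are 95% intervals from limma, and errors of signals are SDs. With 3 arrays a group, 0.1 is the smallest p that exact permutation allows, so none is given. The scripts were tested on simulated data. Noise was drawn from a normal distribution with the fitted spread of each probe set, and 50 probe sets were changed at each of 1.5-, 2-, 3- and 4-fold. In that test 50% of 1.5-fold and 98% of 2-fold changes were recovered at 30 against 6 months, with 7 false calls. More probe sets passed there than the 17 of the data, which loosens the adjusted threshold. The shares are therefore not the chance of calling a given vessel gene in these data.

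Members, lists and naming rules were chosen with earlier results of these data known. All members are named, with the called genes of each list (for lists with no call, its 2 brightest genes), and the 2 genes most like each member. Alternatives were the pseudocount, the filter, quantile normalization, the replicate block, the prior, fewer arrays and each array left out.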

Additional observations from a re-analysis of the deposited data

How the results depend on the processing

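For the vessel genes 0 probe sets passed in any of the 17 alternative fits by limma, with at most 2 at an unadjusted p under 0.05. Those 2, of 18, arose at 30 against 18 months without replicate 2 of 18 months, where 408 of all 5244 probe sets did so. Of 903 refitted log2 changes, 74 crossed 0. The smallest adjusted p was 0.370, for *Flt1* at 30 months without replicate 3 of that age. Under quantile normalization the fold rule was met at 30 against 6 months by 2 member probe sets instead of 0, X16261_i_at of *Myh11* and AF085195_at of *Nos3*, both of low signal.

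Counts over all probe sets moved more. At 18 against 6 months 4 passed, 8 with a trended, robust prior and 0 with the 6 compared arrays alone (378 at an unadjusted p under 0.05). At 30 against 6 months 17 passed, and 11 with the replicate block. At 30 against 18 months 1 passed, 4 without a filter, and 0 with a pseudocount of 64, the upper 40% of probe sets, the replicate block, the trended prior or 6 arrays, where 92 to 220.0 had an unadjusted p under 0.05. By the F-test 14 passed, 6 with a pseudocount of 8, 6 without a filter, 9 after quantile normalization and 4 with the replicate block. Leaving out 1 array gave 0 to 5, 0 to 20 and 0 to 1 for these comparisons in turn and 0 to 11 for the F-test. The cause was not tested. The replicate block changed no call of a vessel gene, since none passed either way; for the strongest *Vegfa* set it gave an interval of -0.09 to 0.50 at 30 against 6 months (adjusted p = 0.488). Pairs of arrays with the same number had a median correlation of deviations of 0.09 (-0.02 to 0.26), and others one of -0.04 (-0.21 to 0.15). Deviations from an age mean cancel out within that age, so the 2 medians are not independent. Signals of *Vwf* were below the filter, and of the tested sets X06801cds_i_at of *Acta2*, AJ011115_g_at of *Nos3* and *Cnn1* had the widest intervals.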
